A study of Brachypodium distachyon with 6 samples.

Results

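A set of 58 genes of *Brachypodium distachyon* was read by intact roots and was strongly raised in the roots of pruned plants. A gene was taken into the set when its lowest value in the 3 pruned libraries was at least 3 times its highest value in the 3 intact libraries, and when it had at least 1 RPM in each intact library. The set holds 58 of the 19538 genes of the deposited table, which is 0.297% of them. RPM are reads of a gene per 1000000 reads counted on the listed genes of the same library.

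The roots came from seedlings of the inbred line Bd21, a reference line of this small temperate grass. Pruned seedlings were 2 weeks old when their aerial portion was cut with scissors down to a stub, and their roots were collected 2 days later, in 3 libraries. Intact seedlings stood in the same boxes, 20 seeds to a box, were of the same age and were left uncut, and their roots gave another 3 libraries. Seedlings of both groups grew from sterilized seeds on agar medium that contained sucrose, and whole roots were taken.

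Cutting the leaves of a grass removes its photosynthetic tissue and wounds the shoot, while the root itself stays whole. Roots of cut grasses are known to receive less sugar from the shoot, and jasmonates and abscisic acid are hormones through which plants respond to wounding and to water loss.

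The genes were chosen by their values in all 6 libraries, so the difference between pruned and intact roots is given for these genes as a description, with no test. Over all 19538 genes, 496 (2.54%) were called higher in pruned roots by limma (adjusted p up to 0.05, 2-fold change or more), and 337 (1.72%) were called lower. All 58 chosen genes were among those called higher, as the rule leads to. Every pruned library lay above every intact library for 6523 genes (33.4% of the table), the 58 included. In the mirrored direction, with at least 1 RPM in every pruned library and at least a 3-fold fall, the same rule found 82 genes.

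The libraries held 17278649, 28420464 and 26518230 reads for pruned roots and 21292543, 18790356 and 18150223 reads for intact roots. The chosen genes had 105 to 43658 reads in a pruned library, with a median of 1158, and 20 to 3977 reads in an intact library, with a median of 171. For pruned replicates 2 and 3 the authors used 1 read of each pair (R1), and both reads for the other 4 libraries. Read layout thus differed within the pruned group and, in part, between pruned and intact roots. Of the chosen genes, 22 of 58 (37.9%) were highest in pruned replicate 1, against 38.9% of all listed genes. The rule asks for high values in all 3 pruned libraries, which favours their agreement, and an effect of read layout was not tested. The ratio of pruned replicate 1 to the mean of pruned replicates 2 and 3 had a median of 1.00 over the chosen genes, with a range from 0.801 to 1.36. With pruned replicate 1 as the only pruned library, the rule chose 75 genes. The 58 are among them by construction, since dropping a library can only loosen the rule.

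**Figure D1:**
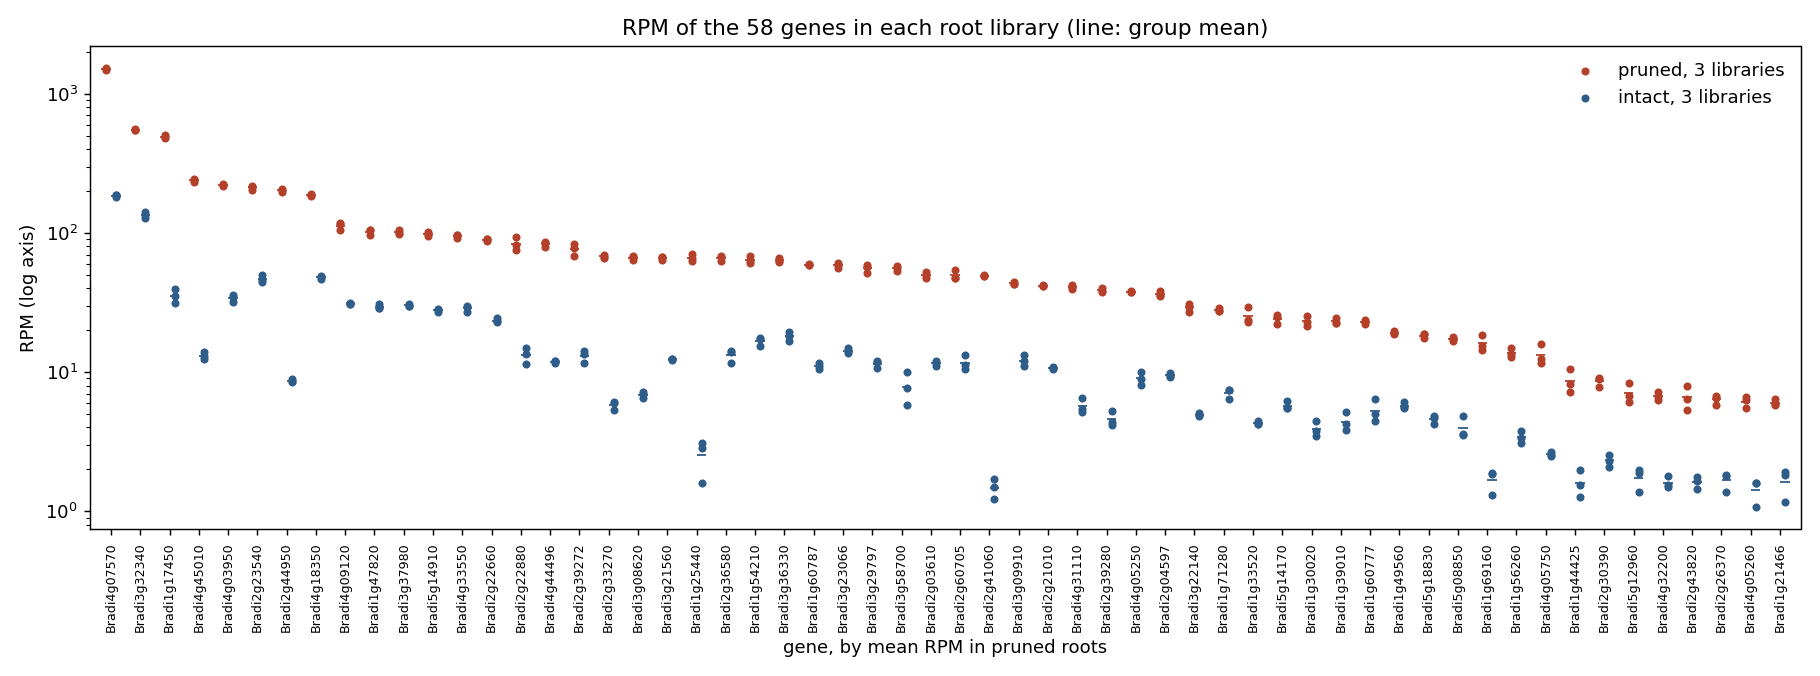
RPM of each of the 58 chosen genes on a log axis, with the 3 pruned libraries in red and the 3 intact libraries in blue, points for libraries and short lines for group means. Genes are ordered by mean RPM in pruned roots, from 1508 for Bradi4g07570 to 6.02 for Bradi1g21466, and the red and blue points of a gene do not overlap, as the rule requires.

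The most abundant chosen gene was Bradi4g07570. It had 1516, 1536 and 1473 RPM in pruned roots, against 187, 182 and 188 RPM in intact roots. Its mean was 8.13 times as high in pruned as in intact roots, and its place among all listed genes by mean RPM was 39 in pruned roots and 1024 in intact roots. By the RPM it gained, 1323, it was the third of the whole table and the only chosen gene among the 10 largest gains. Bradi3g32340 had 554, 556 and 549 RPM in pruned roots, against 134, 141 and 129 RPM in intact roots. Bradi4g07570 and Bradi3g32340 were the only chosen genes with a mean of at least 100 RPM in intact roots.

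A further 9 genes passed 100 RPM in pruned roots. Bradi1g17450 had 492, 483 and 503 RPM in pruned roots, against 39.5, 35.2 and 31.6 RPM in intact roots, a ratio of means of 13.9. Bradi4g45010 had 231, 245 and 240.3 RPM in pruned roots, against 12.5, 13.8 and 12.9 RPM in intact roots, a ratio of 18.2. Bradi2g44950 had 207, 196 and 205 RPM in pruned roots, against 8.88, 8.62 and 8.48 RPM in intact roots, a ratio of 23.4. These 3 genes thus joined a high level in pruned roots to a ratio above 10. In intact roots the CV (coefficient of variation, the SD as a share of the mean) was 11.2% for Bradi1g17450, 5.22% for Bradi4g45010 and 2.29% for Bradi2g44950. Bradi4g03950 averaged 222 ± 3.66 RPM in pruned and 34.2 ± 2.27 RPM in intact roots (SD, n = 3 each). Bradi2g23540 averaged 213 ± 6.61 RPM in pruned and 46.8 ± 2.56 RPM in intact roots. Bradi4g18350 averaged 187 ± 3.60 RPM in pruned and 48.0 ± 1.43 RPM in intact roots. The other 3 genes lay just above 100 RPM in pruned roots. They were Bradi4g09120 with 113 ± 7.26 RPM in pruned and 31.1 ± 0.192 RPM in intact roots, Bradi1g47820 with 102 ± 4.43 RPM in pruned and 29.5 ± 1.00 RPM in intact roots, and Bradi3g37980 with 101 ± 3.54 RPM in pruned and 30.2 ± 0.705 RPM in intact roots. RPM are not divided by gene length, so these orders are of read shares and not of transcripts.

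Bradi2g41060 had the largest ratio of means of the set, 33.6, with 50.004, 49.4 and 48.6 RPM in pruned roots, against 1.69, 1.22 and 1.49 RPM in intact roots. Its lowest pruned value was 28.8 times its highest intact value, the largest such ratio of the set. Bradi1g25440 had 62.5, 70.1 and 66.0 RPM in pruned roots, against 2.86, 1.60 and 3.09 RPM in intact roots. Its CV in intact roots was 31.9%, the highest of the set there. The ratio of its lowest pruned to its highest intact value was 20.3.

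Bradi2g33270 averaged 67.9 ± 1.80 RPM in pruned and 5.79 ± 0.415 RPM in intact roots. Bradi3g08620 averaged 66.4 ± 2.44 RPM in pruned and 6.87 ± 0.330 RPM in intact roots. Bradi1g69160 averaged 16.1 ± 2.02 RPM in pruned and 1.68 ± 0.319 RPM in intact roots, with 28 reads in intact replicate 1. The ratios of means of these 3 genes were 11.7, 9.66 and 9.54. Over the whole set, the ratio of the lowest pruned to the highest intact value was 3 to 4 in 32 genes, 4 to 6 in 13, 6 to 10 in 7 and 10 or more in 6. The set is thus mostly of genes near its lower limit, with a small number far above it.

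**Figure D2:**
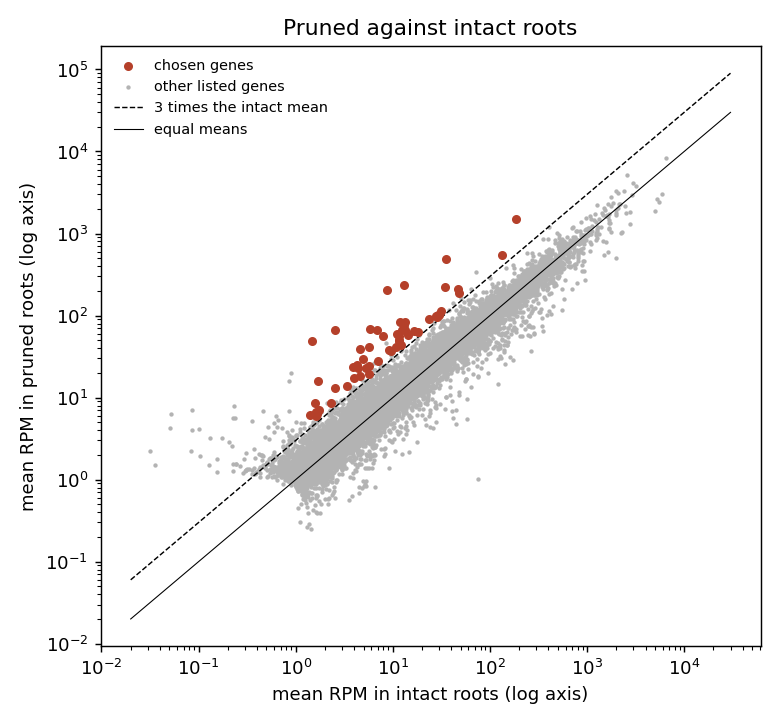
Mean RPM in pruned roots against mean RPM in intact roots on log axes, for the 58 chosen genes in red and the other listed genes in grey, with lines at equal means and at 3 times the intact mean. The chosen genes lie from 6.02 to 1508 RPM in pruned roots and from 1.42 to 186 RPM in intact roots, and 1 gene with a group mean of 0 is not drawn.

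By abundance class, the chosen genes were mostly of middle level in pruned roots and of low to middle level in intact roots. In pruned roots, 14 of the 58 had a mean of 5 to 20 RPM, 33 had 20 to 100 RPM and 11 had 100 RPM or more, and no chosen gene was in the class of 1 to 5 RPM. In intact roots, 20 had 1 to 5 RPM, 26 had 5 to 20 RPM, 10 had 20 to 100 RPM and 2 had 100 RPM or more. At least 1 class was climbed by 52 of the 58 genes, and 9 climbed 2 classes. A climb of this kind follows from the 3-fold rule, so it is a description of the set. Of all listed genes with 1 to 5 RPM in intact roots, 0.452% were chosen, and the shares were 0.435%, 0.150% and 0.0963% in the next 3 classes.

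The 9 genes that climbed 2 classes included Bradi2g41060 and Bradi1g25440, both of the 20 to 100 RPM class in pruned roots and of the lowest class in intact roots. Bradi4g45010 and Bradi2g44950 were in the class of 100 RPM or more in pruned roots, against 5 to 20 RPM in intact roots. The median of the chosen genes was 49.8 RPM in pruned and 8.85 RPM in intact roots, while the median of all listed genes was 17.1 RPM in pruned and 16.5 RPM in intact roots. The typical chosen gene was thus above the typical listed gene in pruned roots, and below it in intact roots. Across the 58 genes, the level in pruned roots followed the level in intact roots (Spearman's rho 0.88 over the group means of the same libraries), and the ratio of means followed it little (rho -0.18). Over all listed genes the rho of pruned against intact level was higher, 0.98, so the 0.88 is not particular to the set. These values are descriptions across genes, which are not independent replicates, and the ratio contains the intact level.

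**Figure D3:**
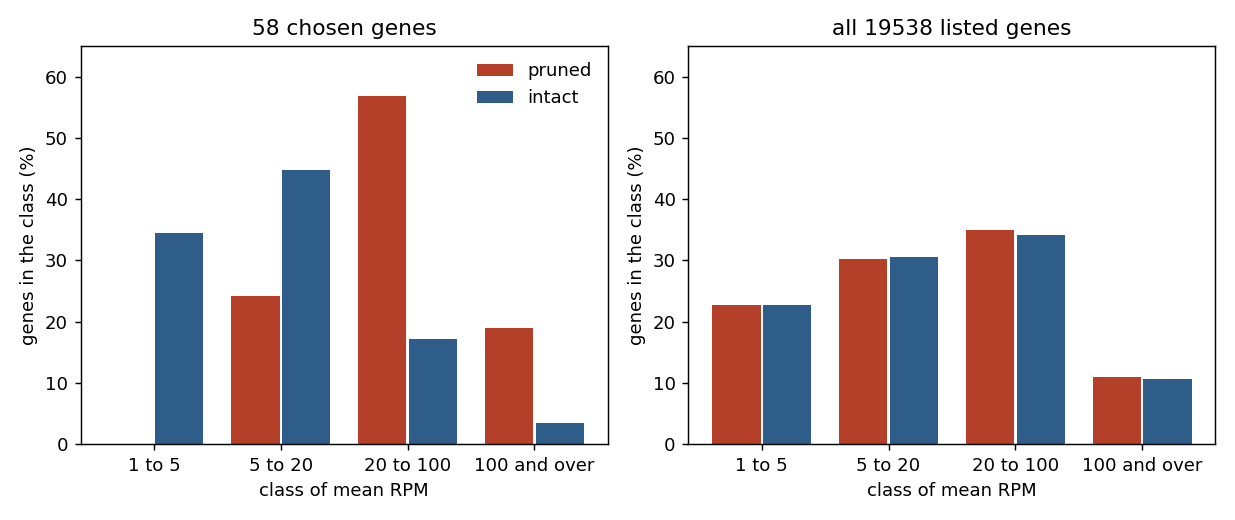
Share of genes in 4 classes of mean RPM, for the 58 chosen genes in the left panel and for all 19538 listed genes in the right panel, with bars for pruned roots in red and intact roots in blue. The chosen genes shift to higher classes in pruned roots, with 11 of them (19.0%) at 100 RPM or more against 2 (3.45%) in intact roots, while the classes of all listed genes hardly differ between the groups.

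Together the 58 genes took 0.587%, 0.588% and 0.585% of all RPM in the 3 pruned libraries, against 0.0992%, 0.0988% and 0.0969% in the 3 intact libraries. Their summed level was 5867 ± 16.6 RPM in pruned and 983 ± 12.4 RPM in intact roots (SD, n = 3 each), which is 5.97 times as high in pruned roots. The replicates of a group lay close together in this sum. The gain was 4884 RPM, or 0.488 percentage points of all reads counted. RPM of a library always sum to 1000000, so this gain is a change of read shares and stands against losses in other genes. Over the 10853 genes with a higher mean in pruned roots, the rises summed to 116380 RPM, and the chosen genes made up 4.20% of that sum and 0.534% of those genes.

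The gain was uneven among the 58 genes. Bradi4g07570 alone gave 27.1% of it. With Bradi1g17450 and Bradi3g32340 the share was 45.0%, and the 10 largest gains gave 66.9%. To reach 80% of the gain, 20 genes were needed. The 20 genes of the lowest intact class gave 6.84% of the gain, against 35.6% from the 2 genes of the highest class. In the order of all listed genes, 8 of the chosen genes were among the 100 largest gains. For Bradi2g41060 and Bradi1g25440, with ratios of means of 33.6 and 26.3, the gains were 47.9 and 63.7 RPM. Bradi1g17450, Bradi4g45010 and Bradi2g44950 were in the first 5 both by the gain and by the ratio of the lowest pruned to the highest intact value.

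**Figure D4:**
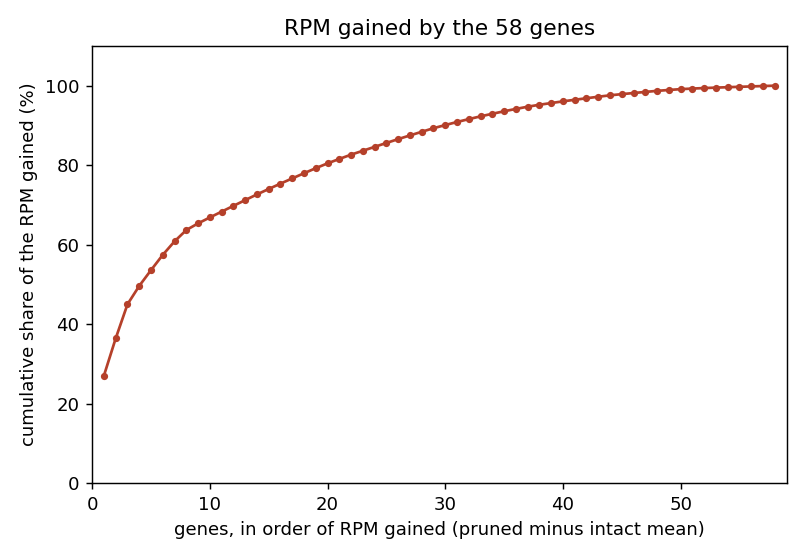
Cumulative share of the RPM gained by the 58 chosen genes, in order of the gain of each gene (mean RPM in pruned minus mean RPM in intact roots). The first gene reaches 27.1%, the first 10 genes 66.9%, and 20 genes are needed to reach 80%.

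Replicates of the chosen genes lay close together. The CV had a median of 3.89% in pruned roots, where the listed genes of the same range of levels had a median of 4.32%. In intact roots it had a median of 7.14%, against 6.70% for listed genes of the same range. Each range runs from the lowest to the highest mean of the set. It holds 14210 listed genes in pruned and 17421 in intact roots, so the levels within it were not matched. A CV above 10% was found for 7 chosen genes in pruned roots and for 21 in intact roots. The widest spread in pruned roots, 20.2%, was that of Bradi2g43820, with 7.99, 6.37 and 5.35 RPM in pruned roots and 1.64, 1.44 and 1.76 RPM in intact roots. The rule asks for separation of the extremes, so it holds back genes whose replicates spread widely.

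Some values lay close to the limit of the rule. Just inside it were Bradi1g21466, Bradi2g43820 and Bradi1g49560, with ratios of the lowest pruned to the highest intact value of 3.02, 3.04 and 3.04. Just outside it were Bradi4g05734 (2.99), Bradi3g38290 (2.98) and Bradi3g37990 (2.96). Bradi4g05734 had 139, 147 and 144 RPM in pruned roots, against 42.6, 46.6 and 36.9 RPM in intact roots, so that by its level it would have stood among the 10 most abundant genes of the set. A ratio of 2 to 3 was found for 186 genes with at least 1 RPM in every intact library, and 51 genes with a ratio of at least 3 were left out because an intact library was under 1 RPM.

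The rule did not use the order of genes along the chromosomes. *B. distachyon* identifiers give the chromosome and a number that rises along it, and the chosen genes lay on all 5 chromosomes. Chromosome 1 held 15 of them, and chromosomes 2, 3, 4 and 5 held 16, 10, 12 and 5. As a share of the listed genes of the chromosome this was 0.259%, 0.359%, 0.226%, 0.393% and 0.275%. Gene positions and lengths were not analysed here, so neighbours are neighbours by identifier among the listed genes.

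Neighbouring identifiers were raised together at several places. Of the 58 genes, 4 (6.90%) had another chosen gene as the listed gene just before or just after, in 2 pairs. Of all listed genes, 0.297% are chosen. That is the share of genes that are chosen and not of genes with a chosen neighbour on either side, so the 2 shares are unlike measures. The first pair was Bradi1g60777 and Bradi1g60787. Bradi1g60777 had 22.0, 23.7 and 23.0 RPM in pruned roots, against 6.39, 5.00 and 4.46 RPM in intact roots. Bradi1g60787 had 58.7, 58.5 and 59.8 RPM in pruned roots, against 11.6, 10.5 and 11.1 RPM in intact roots. The next gene after them, Bradi1g60800, was not chosen and was higher in pruned roots as well, with 193 ± 5.95 RPM in pruned and 84.1 ± 1.63 RPM in intact roots (log2 fold change 1.20, standard error 0.05, limma adjusted p = 2.65e-16). The gene after it and the gene before the pair, Bradi1g60817 and Bradi1g60770, had log2 fold changes of 0.10 and 0.19 (adjusted p = 0.137 and 0.128 by limma). Here the rise covered a run of 3 listed genes.

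The second pair was Bradi4g05250 and Bradi4g05260. Bradi4g05250 had 37.6, 38.3 and 37.4 RPM in pruned roots, against 8.08, 8.94 and 10.1 RPM in intact roots. Bradi4g05260 had 6.31, 6.58 and 5.54 RPM in pruned roots, against 1.60, 1.06 and 1.60 RPM in intact roots, where 20 reads were the fewest. On one side the next gene, Bradi4g05230, had a log2 fold change of 0.66 (adjusted p = 1.09e-04 by limma), below the 2-fold threshold. On the other side Bradi4g05300 had a log2 fold change of -0.16 (adjusted p = 0.101 by limma).

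Another group was seen at Bradi2g39272 and Bradi2g39280, which have 1 listed gene between them and were picked out here after their values were seen. Bradi2g39272 had 83.5, 68.8 and 78.4 RPM in pruned roots, against 13.4, 14.1 and 11.6 RPM in intact roots. Bradi2g39280 had 37.4, 38.4 and 40.3 RPM in pruned roots, against 4.18, 5.22 and 4.41 RPM in intact roots. The gene between them, Bradi2g39277, had 13.9, 9.57 and 8.22 RPM in pruned roots and 9.82, 10.4 and 10.1 RPM in intact roots, so the groups overlapped (log2 fold change 0.03, adjusted p = 0.887 by limma). The genes before Bradi2g39272 were higher in pruned roots. Bradi2g39265 averaged 208 ± 6.10 RPM in pruned and 64.2 ± 4.42 RPM in intact roots (log2 fold change 1.69, standard error 0.05, limma adjusted p = 3.74e-18). Bradi2g39260 averaged 849.6 ± 29.5 RPM in pruned and 354 ± 31.0 RPM in intact roots (log2 fold change 1.27, standard error 0.05, limma adjusted p = 1.25e-15). From Bradi2g39260 to Bradi2g39280, 4 of 5 listed genes were called higher, where 2.54% of all listed genes were. The calls of Bradi2g39272 and Bradi2g39280 follow from the rule, and the stretch was cut at called genes. The genes just outside it, Bradi2g39247 and Bradi2g39285, were not called (log2 fold changes of -0.36 and 0.69). Of the 4 called genes, those with a smaller level in intact roots had a larger fold change, which contains that level.

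**Figure D5:**
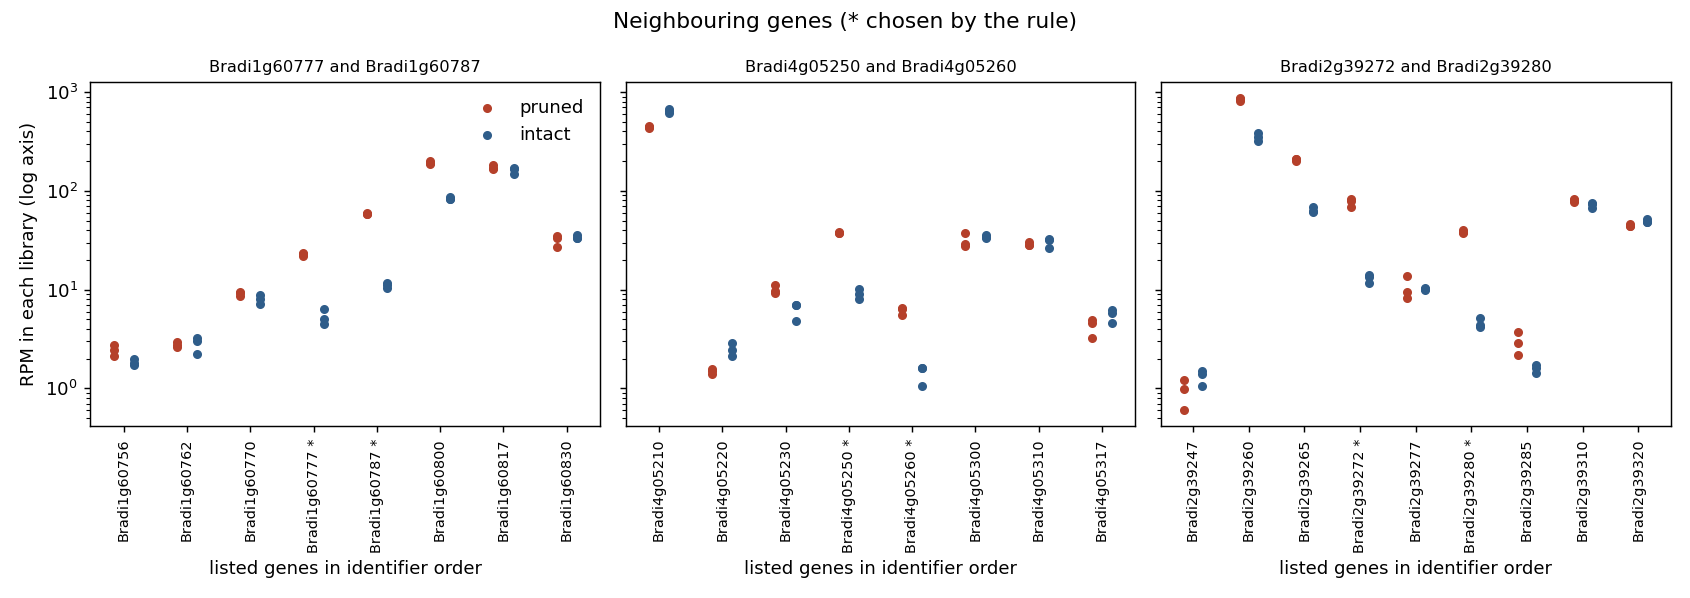
RPM in each library on a log axis for listed genes in identifier order around the 2 adjacent pairs and around Bradi2g39272 and Bradi2g39280, with pruned libraries in red to the left of intact libraries in blue and chosen genes marked with a star. Beside the chosen genes, Bradi1g60800, Bradi2g39260 and Bradi2g39265 are also separated between the groups, while Bradi2g39277 overlaps.

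In all, 111 listed genes stood next to a chosen gene without being chosen. Of these, 11 (9.91%) were called higher in pruned roots and 3 (2.70%) were called lower. Among all 19480 genes that were not chosen, 2.25% were called higher and 1.73% lower. The share called higher was thus larger next to the chosen genes than in the rest of the table, while the shares called lower lay closer together. Some listed genes are below 1 RPM in intact roots and are listed through their pruned values. With 1 RPM asked of all 6 libraries, 9 of 105 adjacent genes (8.57%) were called higher, where 2.00% of all 18415 genes were. Without a fold change threshold, 43 of the 111 were higher and 16 were lower with an adjusted p of at most 0.05, where over all genes 30.1% were higher and 20.2% lower. The median log2 fold change was 0.11 over the 111 genes and 0.04 over all genes not chosen. The deposited values do not tell reads of overlapping genes apart where the counting ignored strand, and the strand setting is not given in the sources used here. Only uniquely mapped reads were counted, so reads shared by near-identical neighbours are missing from the values of both.

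The largest log2 fold change beside a chosen gene was that of Bradi3g36347, next to Bradi3g36330, with 5.79, 4.93 and 4.64 RPM in pruned roots, against 0.376, 0.479 and 0.220 RPM in intact roots (log2 fold change 2.72, standard error 0.17, limma adjusted p = 4.06e-12). Its intact values under 1 RPM kept it out of the set. Every listed gene had at least 1 RPM in 3 or more libraries. This gene is thus listed only through its pruned values, which favours its call. Bradi3g37990, one of the genes just outside the limit, stood next to the chosen gene Bradi3g37980. Bradi3g29810 averaged 577 ± 24.6 RPM in pruned and 242 ± 6.05 RPM in intact roots, beside the chosen gene Bradi3g29797 (log2 fold change 1.25, limma adjusted p = 6.06e-17). Next to Bradi2g41060, the gene with the largest ratio, Bradi2g41070 averaged 99.3 ± 4.68 RPM in pruned and 49.0 ± 2.13 RPM in intact roots (log2 fold change 1.01, limma adjusted p = 1.31e-13). Together with the 2 pairs, 14 of the 58 chosen genes (24.1%) had an adjacent gene called higher. The share was 12.8% for the other genes called higher (56 genes) and 4.94% for all listed genes.

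Not every neighbour followed. Beside Bradi4g07570, the most abundant of the set, Bradi4g07580 was lower in pruned roots, with 4.53 ± 0.958 RPM against 11.8 ± 0.560 RPM in intact roots (log2 fold change -1.30, limma adjusted p = 3.66e-09). Beside Bradi2g33270, Bradi2g33290 averaged 24.1 ± 1.20 RPM in pruned and 72.8 ± 4.49 RPM in intact roots (log2 fold change -1.57, limma adjusted p = 3.44e-16). The study's gene ontology (GO) table places Bradi2g33290 under glycolytic process and 6-phosphofructokinase activity, the enzyme that commits hexose phosphate to glycolysis. Beside Bradi5g08850, Bradi5g08840 averaged 121 ± 2.72 RPM in pruned and 335 ± 24.0 RPM in intact roots (log2 fold change -1.46, limma adjusted p = 2.38e-17).

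Functions could be read for few of the chosen genes from the sources used here. Of the 58, 7 stand by identifier in the printed part of the GO table, 6 of them in a term whose genes are printed whole, and for the other 51 no term was used here. The study drew this table from its own differentially expressed genes of the same libraries, so the terms are no independent evidence of a direction. For the counts below, 2.54% of all listed genes were called higher and 1.72% lower. Without a fold threshold the shares were 30.1% and 20.2%. Counts within the terms are expected to lie above these shares, since their genes had been called before. Gene names printed elsewhere in the supplementary tables were not used. In those tables the gene number of the NCBI database given beside an identifier lay on the chromosome of the identifier for 94 of 337 pairs, and for 0 of the 8 pairs of chosen genes. None of the listed identifiers stands in the gene reference used here (0 of 19538), so markers of root, shoot or dividing cells were not analysed here.

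Of the chosen genes, 2 stand under response to wounding and response to jasmonic acid, a lipid-derived hormone that rises in wounded plants. They are Bradi2g41060, described above, and Bradi1g30020. Bradi1g30020 had 21.6, 25.4 and 22.9 RPM in pruned roots, against 3.76, 4.47 and 3.47 RPM in intact roots, with a ratio of means of 5.97. Of the 10 other genes under response to wounding, 3 were called higher and 0 called lower at 2-fold, and without a fold threshold 9 were higher and 1 lower with an adjusted p of at most 0.05. The 1 lower gene was also the only one at an unadjusted p under 0.05, and edgeR and DESeq2 each called 0 lower at 2-fold. Of the 10 other genes under response to jasmonic acid, 3 were called higher and 1 lower, and 8 were higher and 2 lower without the fold threshold. The median log2 fold change of the 12 genes, the 2 chosen ones included, was 0.84 for wounding and 0.81 for jasmonic acid. It was 0.04 for all listed genes. The terms hold only genes that the study had called in these libraries, so these medians are not of like sets.

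The 2 chosen genes had the largest log2 fold changes under both terms. They were chosen for a large ratio in these same libraries, so this order follows from the rule and is a description. Under response to wounding, the largest log2 fold change of a gene that was not chosen was 1.23, that of Bradi3g32350, against 4.67 for Bradi2g41060 and 2.44 for Bradi1g30020. Bradi3g32350 is the gene next to Bradi3g32340, the second most abundant of the chosen genes, and had 47.5, 48.0 and 46.9 RPM in pruned roots, against 20.1, 20.2 and 19.4 RPM in intact roots (limma adjusted p = 2.98e-14). Under response to jasmonic acid, Bradi1g14370 averaged 24.1 ± 0.403 RPM in pruned and 7.87 ± 0.776 RPM in intact roots (log2 fold change 1.56, limma adjusted p = 2.93e-13). In the other direction, Bradi1g01170 averaged 64.4 ± 0.926 RPM in pruned and 348 ± 15.9 RPM in intact roots (log2 fold change -2.42, limma adjusted p = 1.07e-21). Genes under one hormone term thus moved both ways.

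Bradi2g41060 stands also under oligopeptide transport, the passage of short peptides across membranes, with 6 other genes. Of these, 1 was called higher, Bradi1g21010 with 4.97 ± 0.543 RPM in pruned and 1.22 ± 0.351 RPM in intact roots (log2 fold change 1.68, limma adjusted p = 7.42e-09). Without a fold threshold, 4 of the 6 were higher and 2 lower with a limma adjusted p of at most 0.05. Besides Bradi1g21010, the higher ones were Bradi5g10920, Bradi2g50580 and Bradi2g56397, with log2 fold changes of 0.76, 0.68 and 0.62 (limma adjusted p = 5.78e-11, 5.04e-04 and 5.42e-07). The lower ones were Bradi3g33030 and Bradi3g33040, with log2 fold changes of -0.81 and -0.73 (limma adjusted p = 5.06e-09 and 7.97e-04). The median of the 7 genes was 0.68. Bradi2g41060, which the rule chose for its large ratio, had 4.67.

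Bradi5g18830 stands under abscisic acid transport and under active transmembrane transporter activity. It had 18.6, 17.5 and 18.7 RPM in pruned roots, against 4.70, 4.84 and 4.24 RPM in intact roots. Abscisic acid is a hormone of drought and stress responses that is moved between tissues by transporters in the membrane. The only other gene of the transport term, Bradi4g24120, had a log2 fold change of 0.64 (limma adjusted p = 3.17e-04). Of the 22 other genes under active transmembrane transporter activity, 2 were called higher and 0 lower by limma (2.54% and 1.72% over all listed genes). Log2 fold changes of these 22 genes ran from -0.89 to 1.33. Without a fold threshold, 14 of them were higher and 8 lower with a limma adjusted p of at most 0.05. At an unadjusted p under 0.05 the lower ones were also 8, and edgeR and DESeq2 each called 0 lower at 2-fold. Under response to lipid and response to alcohol, which hold Bradi5g18830 with 24 and 21 other genes, 4 of the others were called higher and 1 lower in each, and edgeR and DESeq2 called 3 lower. Without a fold threshold, 16 of the others were higher and 8 lower under response to lipid, and 13 were higher and 8 lower under response to alcohol.

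Bradi3g23066 stands under ion homeostasis and anion homeostasis, the upkeep of ion levels in the cell. It had 60.7, 59.0 and 56.2 RPM in pruned roots, against 14.9, 13.6 and 14.2 RPM in intact roots. The 3 other genes under anion homeostasis passed the limma test as higher in pruned roots, and 2 of them reached 2-fold. The study had called the genes of this term in the same libraries, which favours passing the test. The largest log2 fold change among the others was that of Bradi2g41087, with 59.6 ± 1.80 RPM in pruned and 23.4 ± 1.09 RPM in intact roots (log2 fold change 1.33, limma adjusted p = 5.71e-15). Under ion homeostasis, 2 of 13 other genes were called higher and 1 was called lower (4 by edgeR and by DESeq2). The median log2 fold change over its 14 genes was -0.55.

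Terms of transferases hold 2 more of the chosen genes. Bradi3g21560, under transferase activity for acyl groups, had 67.4, 64.4 and 67.3 RPM in pruned roots, against 12.4, 12.3 and 12.2 RPM in intact roots, the second narrowest spread of the set in intact roots with a CV of 0.695%. Enzymes of this kind attach acyl residues to small molecules or lipids. Of the 23 other genes of the term, 8 were called higher and 3 lower. One of the 23 is Bradi3g21550, the gene next to Bradi3g21560, with 197 ± 2.50 RPM in pruned and 103 ± 10.6 RPM in intact roots (log2 fold change 0.93, limma adjusted p = 1.47e-12), below the 2-fold threshold. It was the only adjacent gene that shared a printed term with its chosen neighbour. Only 7 of the 58 chosen genes have a printed term, so for most neighbours a shared term could not be seen.

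Bradi3g58700, under transferase activity for hexosyl groups, had 52.9, 57.9 and 56.2 RPM in pruned roots, against 5.78, 7.72 and 10.0 RPM in intact roots. Enzymes of this kind pass a sugar from an activated donor to another molecule. Its intact values spread more widely than those of most chosen genes, with a CV of 27.1%. Of the 23 other genes of the term, 2 were called higher and 1 lower. The seventh annotated gene, Bradi1g39010, stands only under terms of membrane components whose lists are printed in part, and averaged 23.2 ± 1.15 RPM in pruned and 4.40 ± 0.707 RPM in intact roots. In bulk roots, a change in the share of cells that express a gene and a change of RNA per cell cannot be told apart, and this holds for every gene named here.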

How the data were processed

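Root RNA of 3 pruned and 3 intact samples was sequenced. As the methods state, the authors trimmed reads with SolexaQA and cutadapt, aligned them with TopHat to the phytozome v11 genome and used uniquely mapped reads; the processing notes also name HTSeq. The deposited values are RPM of 19538 genes, summing to 1000000 in each library. Every listed gene had at least 1 RPM in 3 or more libraries. All values were whole multiples of a step within 0.01 read (100%), which gave back the reads. All 6 columns were mapped by name.

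The 58 genes, the lists and the rules were chosen with earlier results of these data known. The named genes are the 10 most abundant in pruned roots, the 10 largest ratios, adjacent chosen genes, those in wholly printed GO terms and 3 on each side of the limit; others were named after their values were seen. limma 3.58.1 in R 4.3.3 (trend, two-sided, Benjamini-Hochberg over 19538 genes) was run on log2(RPM + 0.5); genes were called at an adjusted p up to 0.05 and 2-fold change or more. Asking for 0.5 RPM in 3 or more libraries removed 0 genes. Fold changes are on the log2(RPM + 0.5) scale, which understates those of low genes, while ratios of means are of RPM. An exact permutation test of 3 against 3 cannot go below 0.1. On simulated data of 19538 genes, limma recovered 198 of 200 genes changed 4-fold, with 0 false calls. In the simulation every gene had the same dispersion and only genes above a read limit were changed. It therefore checks the code and does not give the rate of false calls in the real libraries.

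Alternatives were other ratios and minimums of the rule, pseudocounts, filters, median-ratio scaling, edgeR 4.0.16 and DESeq2 1.42.0 on the recovered reads, a 1.5-fold threshold, replicate number as a term, and each library left out. Tables and figures used Python 3.11.15, pandas 2.3.3 and matplotlib 3.10.9. Fold changes and p-values printed by the study were not used. Shoots were not analysed here.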

Additional observations from a re-analysis of the deposited data

How the results depend on the processing

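The set depends on its limits. With a ratio of 2 in place of 3 the rule chose 244 genes, of which 32 had an adjacent chosen gene, with 1.17 percentage points of RPM gained. With a ratio of 4 it chose 26 genes, 0 of them adjacent, with 0.342 points. A ratio of group means of at least 3 gave 103 genes, 8 adjacent and 0.698 points. A minimum of 0.5 RPM gave 71 genes and 0.496 points, and a minimum of 2 RPM gave 48 genes, 2 adjacent and 0.472 points. Median-ratio scaling gave 53 genes, all among the 58, and 0.474 points. Pruned replicate 1 as the only pruned library gave 0.519 points. Leaving out 1 library at a time gave 60 to 71 genes, 4 to 6 adjacent and 0.492 to 0.6196 points. The 58 genes are kept each time by construction, since leaving out a library can only loosen the rule. Counting identifiers at most 10 or at most 50 numbers apart as neighbours gave 6 genes each.

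A 1.5-fold threshold gave 1624 genes higher and 933 lower in pruned roots over the whole table, and 22 of the genes next to a chosen gene were then called higher. Under the other alternatives this last count was 9 to 12, with 11 by edgeR and 11 by DESeq2. Over single libraries left out it was 9 to 11, the genes called higher were 450 to 509, those called lower 327 to 350, and the 58 chosen genes were all called. The whole-table counts moved more under the other alternatives at 2-fold, with 369 to 629 genes called higher and 287 to 444 called lower. By edgeR they were 601 and 443, and by DESeq2 590 and 444. The share called higher then ran from 1.94% to 3.22% of the genes tested. Of 310 recomputed log2 fold changes of named genes, 310 kept their direction. The lowest was 1.43, above the 2-fold threshold, and the largest shift from the reported value was 0.32. The named genes passed the rule in these same libraries, or lay just outside it with ratios of 2.96 to 2.99. Their kept direction was thus nearly fixed in advance and is no evidence of robustness. The same holds for the calls of the 58 chosen genes. Same-numbered pruned and intact libraries deviated together little (correlations of -0.03, 0.20 and 0.08), so the numbers were not taken to pair the samples. With the replicate block, 499 genes were called higher, 337 lower and 11 of the adjacent genes higher.

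The groups are of 3 libraries, and a chosen gene near 1 RPM rests on as few as 20 reads in an intact library. The share of all RPM is bound to the listed genes.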

Other observations

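The mirrored rule found 82 genes with at least 1 RPM in every pruned library and a lowest value in intact roots of at least 3 times the highest value in pruned roots. Together they took 0.324 ± 0.00184% of all RPM in pruned roots and 1.31 ± 0.00445% in intact roots (SD, n = 3 each), a difference of -0.983 percentage points. For the 58 genes raised this strongly, the shares were 0.587% in pruned and 0.0983% in intact roots, a difference of 0.488 percentage points.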
